A study of Mus musculus with 284 samples.

Results

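Cells sorted from mouse skin tumours were ranked by how many genes each expressed detectably, and the gene-rich end of that ranking was compared with the gene-poor end. Each cell was thinned at random to 500000 reads, genes with at least 1 read were counted, and the cells of each mouse were cut by that number into 3 parts of equal size. The highest part (gene-rich cells) held 94 cells, the lowest (gene-poor cells) 94 and the middle 96, of 284 cells in all. The members were thus chosen by measured values, so the difference in gene number, and the difference of any gene that can drop out of a cell, is a description with no independent test. The cells are tumour propagating cells of C57BL/6 mice that received the carcinogen DMBA once at 8 weeks of age and then the tumour promoter TPA for over 20 weeks. All were living (propidium iodide excluded dead cells), positive for CD34 and CD49f, and marked by a YFP reporter from the ROSA26 locus (ROSA26-LSL-eYFP; Keratin14-Cre), so any cell whose lineage never switched on keratin 14 was outside the gate. WT1 (69 cells) and WT2 (88 cells) are wild type, and KO1 (73 cells) and KO3 (54 cells) carry the label Sirt6-/-. Wild-type cells and cells labelled Sirt6-/- were sorted onto separate plates, so the part of plate in a genotype difference cannot be told apart from genotype.

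The number of genes a cell shows at equal depth falls when a few abundant transcripts take most of its reads, and rises when many genes are transcribed at moderate levels. In skin, keratinocytes can be resting or proliferating, and the proliferating state carries replication and mitosis programmes. Keratin 15 and Sox9 are expressed by stem cells of the hair follicle bulge. Ribosomal RNA and mitochondrial transcripts are commonly read as measures of RNA quality in single cells, and immediate early genes as the first transcriptional answer to growth factors or to handling stress.

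Before thinning, cells had between 523985 and 1684450 counts. Krt14 and Krt5, keratins of basal epidermis, had reads in 94 of 94 gene-poor and 94 of 94 gene-rich cells. Sirt6 itself stood at 17.04, 22.7, 44.5 and 11 CPM (reads scaled to a total of 1000000) in gene-poor cells and at 15.9, 16.2, 17.3 and 14.7 CPM in gene-rich cells; values are always given in the order WT1, WT2, KO1, KO3. Its transcript was thus seen in the mice labelled Sirt6-/-. Gene-level counts do not show whether the reads fall in the deleted part, so they neither bear out nor contradict the label. At least 2 fibroblast markers were found in 4 gene-poor and 3 gene-rich cells, at least 2 endothelial markers in 1 and 6, at least 2 immune markers in 4 and 3, and at least 2 melanocyte markers in 0 and 0. The 10 fibroblast markers summed to between 80.7 and 390 CPM in gene-poor cells and between 138 and 201 CPM in gene-rich cells, with Col1a2, Dcn, Lum and Pdgfrb at 0. The endothelial markers stayed at or under 15.04 CPM with Kdr and Tek at 0, and the immune markers at or under 40.75 CPM with Cd3e and Adgre1 at 0. The part of such cells in the differences was not tested.

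The median gene-poor cell had 5365, 4750, 4794 and 5584.5 detected genes. The median gene-rich cell had 7191, 6369, 6771.5 and 6952.5 genes, which is 34%, 34.1%, 41.2% and 24.5% more. The ranking is within a mouse: the gene-poor cells of KO3 reached 5964 genes while the gene-rich cells of WT2 began at 5800. The last gene-poor and first middle cell had 6042 and 6042 genes in WT1 (a tie, ordered by well name), 5101 and 5110 in WT2, 5490 and 5503 in KO1, and 5964 and 5989 in KO3. The last middle and first gene-rich cell had 6795 and 6829, 5798 and 5800, 6320 and 6379, and 6446 and 6468 genes in the same order. Cells beside a limit were thus almost alike.

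**Figure D1:**
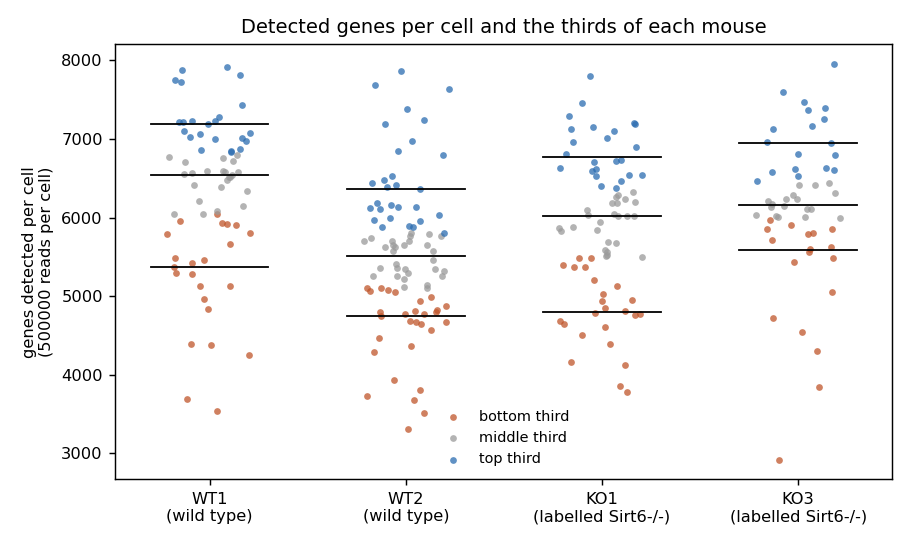
Each point is 1 cell, the vertical axis gives genes detected at 500000 reads per cell, and black bars mark the median of each part. The gene-poor medians lie between 4750 and 5584.5 genes and the gene-rich medians between 6369 and 7191.

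Most of the gap came from protein-coding genes of moderate level, not from the faintest ones. Genes averaging 10 to 100 CPM over all cells contributed a median gap of 1286, 1181, 1422.5 and 1009.5 genes. Genes averaging under 1 CPM contributed 72, 46, 70 and 43 genes. Genes seen with only 1 or 2 reads in the cell differed by 210, 166, 231.5 and 99. Of the 89 genes of the replication (S) and mitosis (G2/M) lists, gene-rich cells showed 45, 45, 34.5 and 34.5 more than gene-poor cells, a small part of the gap. The most abundant genes of a cell, counted to rank 500, took 57.1%, 60.2%, 56.7% and 59.6% of reads in gene-poor cells and 53.9%, 56.5%, 55.6% and 52.8% in gene-rich cells, lower in 4 of 4 mice. The 10 most abundant genes alone differed by -1.12, -1.27, 2.04 and -3.02 percentage points and the top 50 by -1.86, -2.48, 1.88 and -4.13, so KO1 went the other way. Median total counts before thinning were 69612, 40360, 104176 and 42929.5 higher in gene-rich cells, with a mean of 64269 ± 29710 (SD, n = 4 mice). An exact sign-flip permutation test over mice, two-sided, gave p = 0.125 (adjusted 0.375), the smallest that 4 mice allow. Without the 15 cells sorted onto a mouse's second plate the mean difference was 28507.1 counts. Within a mouse the correlation across cells of detected genes with total counts was 0.13, 0.04, 0.25 and 0.11, a description of cells that share a plate.

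Gene-rich cells carried the transcripts of proliferation. Of 12996 genes with a mean of at least 1 CPM, 1632 (12.6%) were higher in gene-rich cells in all 4 mice and 1225 (9.43%) were lower in all 4. Of 49 measured G2/M genes, 40 were higher in all 4 mice and 0 lower, with a median log2 ratio (on CPM + 1) of 1.60. Of 40 S-phase genes, 28 were higher and 1 lower, with a median of 1.41. The median over all genes was 0.06. These gene lists were drawn up with earlier results of these data known.

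The proliferation marker Mki67 stood at 54.96, 16.1, 65.2 and 136 CPM in gene-poor cells and at 202, 217, 190 and 281 CPM in gene-rich cells. Every gene-rich value was above every gene-poor value. Top2a, the topoisomerase that untangles replicated chromosomes (chromosome 11, 98992943 to 99024189, minus strand, GRCm38), had 50.3, 7.17, 46.8 and 108 CPM in gene-poor and 300, 319, 205 and 375 CPM in gene-rich cells, and these too did not overlap. Aurkb, the Aurora kinase of the chromosomal passenger complex, had 23.04, 1.45, 0 and 20.4 CPM against 135, 91.1, 40.8 and 112 CPM. Cdk1, the kinase that drives entry into mitosis, had 39.5, 0, 14.8 and 144 CPM against 169, 140, 114 and 192 CPM, so that gene-poor cells of KO3 exceeded gene-rich cells of WT2 and KO1. The spindle motor Kif11, the checkpoint kinase Ttk, the cytokinesis factor Ect2, the centrosome kinase Nek2, the phosphatase partner Cdca2, the tubulin Tubb3 and the recombination ATPase Fignl1 completed the 10 genes with the highest mean log2 ratio, from 2.93 for Fignl1 to 3.88 for Aurkb. Aurkb had reads in 6 gene-poor and 59 gene-rich cells. Naming asked for a mean of at least 20 CPM over both sides. Ttk, Kif11, Ect2 and Nek2 were under 20 CPM in gene-poor cells of each mouse, so they passed only through gene-rich cells. The size of such ratios is thus tied to that limit. In the S list Prim1, the DNA primase subunit, had a mean log2 ratio of 2.72 ± 2.59 (SD, n = 4 mice), higher in 4 of 4 mice, and E2f8, a transcriptional repressor of the E2F family, 2.50 ± 2.33, higher in 3 of 4.

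Promoters of Ttk, Kif11 and Ect2 are shown, the first of the named G2/M genes by mean log2 ratio with a listed promoter. Their shared sign in all mice was a condition of naming, and Ttk was nearly flat in KO1 (19.6 CPM in gene-poor against 20.1 CPM in gene-rich cells). Sequences are from RefSeq (GRCm38.p6), from 170 bases before to 30 after the start site, with the letters TTTGAA of the cell cycle genes homology region, or their reverse complement, in capitals. Ttk lies at chr9:83834519-83834718 (plus strand), Kif11 at chr19:37376212-37376411 (plus strand) and Ect2 at chr3:27153849-27154048 (minus strand).
Ttk: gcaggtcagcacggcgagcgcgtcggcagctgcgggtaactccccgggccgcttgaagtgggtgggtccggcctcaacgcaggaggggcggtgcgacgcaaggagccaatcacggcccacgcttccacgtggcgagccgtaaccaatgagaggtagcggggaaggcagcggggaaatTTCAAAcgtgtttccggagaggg
Kif11: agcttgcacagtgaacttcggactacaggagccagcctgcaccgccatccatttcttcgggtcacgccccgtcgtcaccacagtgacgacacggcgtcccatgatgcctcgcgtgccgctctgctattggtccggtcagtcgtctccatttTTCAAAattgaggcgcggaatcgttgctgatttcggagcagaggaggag
Ect2: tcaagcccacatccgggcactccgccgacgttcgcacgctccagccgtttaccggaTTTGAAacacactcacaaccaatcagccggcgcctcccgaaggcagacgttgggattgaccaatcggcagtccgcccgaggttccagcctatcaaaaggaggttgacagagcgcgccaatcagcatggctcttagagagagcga

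The letters TTTGAA stood in the window from 250 bases before to 50 after a start site, on either strand, in 32 of 42 G2/M genes with a listed promoter (76.2%). Of all 27025 genes with a listed promoter 20.2% held them, of the S list 4 of 31, and of the immediate early list 4 of 23. The E2F-like letters TTTNNCGC stood in 15 of 31 S-phase promoters (48.4%), in 3 of 42 G2/M promoters and in 5.93% of all. A letter match is a description and not a bound site, and genes with several listed promoters were counted once if any held the letters.

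**Figure D2:**
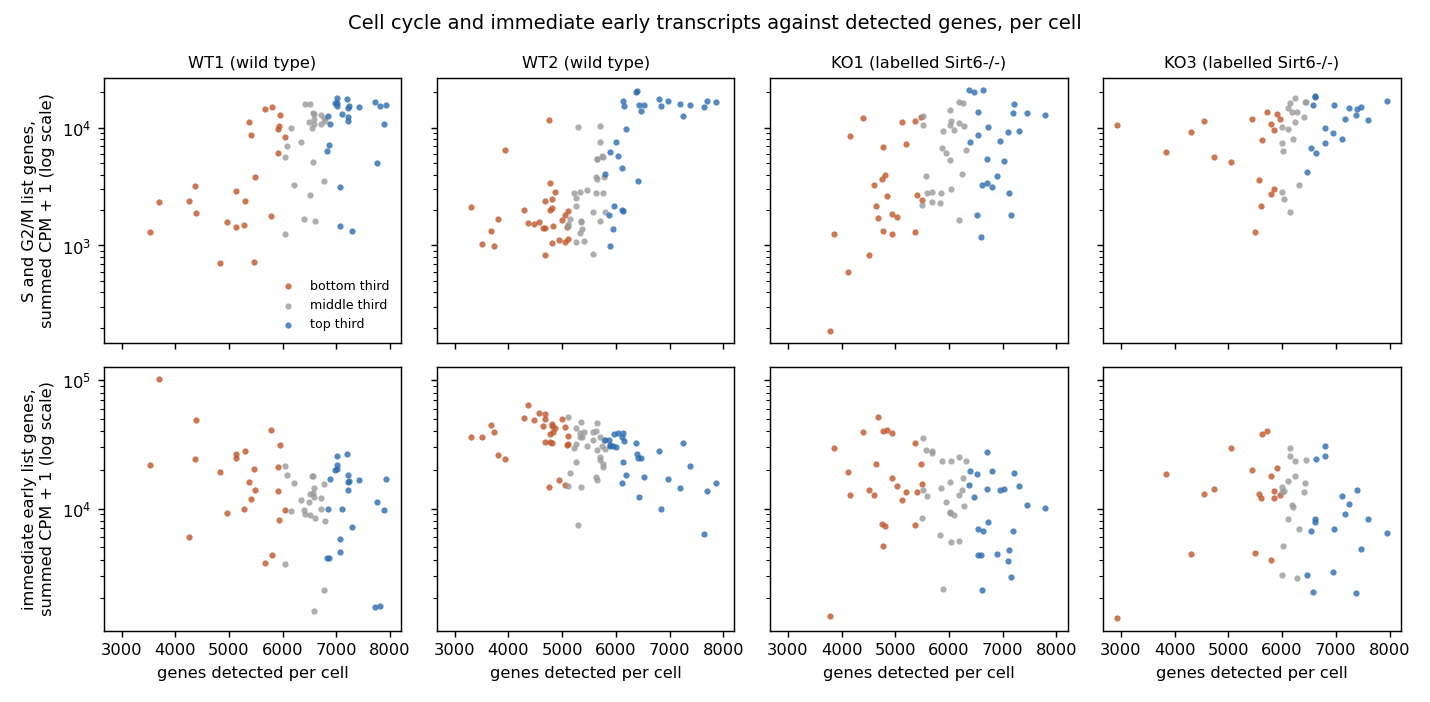
Each point is 1 cell, with detected genes on the horizontal axis and, on log axes, the summed CPM (plus 1) of the S and G2/M lists (upper row) and of the immediate early list (lower row). Cells of high cycle signal stand mostly to the right, and the correlation of detected genes with log2 cycle CPM was 0.57, 0.70, 0.49 and 0.29 in the 4 mice.

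The cycle signal did not follow gene number in every cell. When each mouse's cells were split at the median of their summed S and G2/M reads, the side of low cycle signal held 18 of 23, 24 of 29, 17 of 24 and 11 of 18 gene-poor cells. It also held 6 of 23, 6 of 29, 9 of 24 and 7 of 18 gene-rich cells. In every mouse there were thus gene-rich cells with low cycle signal and gene-poor cells with high cycle signal, and KO3 showed the smallest contrast.

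Most lipid synthesis genes, and a smaller share of DNA repair and metabolic genes, were higher in gene-rich cells of all 4 mice. Of 27 measured genes of cholesterol and fatty acid synthesis, 18 were higher in all 4 mice and 1 lower, with a median log2 ratio of 0.82. Idi1, the isopentenyl diphosphate isomerase of the mevalonate pathway, stood at 91.8, 9.93, 21.7 and 111 CPM in gene-poor cells and at 252, 125, 152 and 271 CPM in gene-rich cells, without overlap between the sides. The fatty acid elongase Elovl6 had a mean log2 ratio of 1.81 ± 1.30 (SD, n = 4 mice). Of 30 DNA repair and checkpoint genes, 9 were higher in all 4 mice and 2 lower, among them the Fanconi anaemia genes Fanca (mean log2 2.79 ± 1.24) and Fancd2 (2.63 ± 1.45) and the checkpoint kinase Chek1 (2.35 ± 1.77). The maintenance methyltransferase Dnmt1 (mean log2 1.27 ± 0.46) and the Polycomb methyltransferase Ezh2 (1.43 ± 0.82) were higher in 4 of 4 mice, but only 3 of 53 chromatin regulators were, and 7 were lower. Nuclear oxidative phosphorylation genes had 7 of 74 higher and 8 lower, with a median of -0.01; the shares, 9.5% and 10.8%, were near those of all genes. Smaller medians than that of lipid synthesis were seen for glycolysis (0.30, 7 of 23 higher and 1 lower), the TCA cycle (0.21, 6 of 20 higher, 0 lower), spliceosome and SR proteins (0.16, 14 of 52 higher, 1 lower) and the proteasome (0.19, 8 of 31 higher, 2 lower). Within glutathione and antioxidant genes (9 of 26 higher, 5 lower), the glutathione synthesis subunit Gclc was higher in 4 of 4 mice (1.03 ± 0.22), as was the peroxiredoxin Prdx4 (1.03 ± 0.43). Heat shock chaperones had 8 of 26 higher and 3 lower, with a median of 0.05. Of 22 genes of the unfolded protein and ATF4 response 9 were higher and 3 lower, with opposite members: the mitochondrial folate enzyme Mthfd2 had 24.96, 8.9, 16.83 and 47.1 CPM against 76.7, 42.8, 43.3 and 78 CPM, while the mTORC1 inhibitor Ddit4 was lower in 4 of 4 mice (-1.08 ± 0.18).

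Wound keratins and alarmins were not one-sided, with 1 of 12 genes higher and 1 lower in all 4 mice and mouse medians of 1.251, 1.60, 0.31 and -0.45. The wound keratin Krt6a had 1289, 704, 1326 and 5545 CPM in gene-poor cells and 6052, 2585, 4531 and 6605 CPM in gene-rich cells. Its partner Krt16 had 407, 243, 982 and 6945 CPM against 5281, 1639, 2285 and 5674 CPM, so gene-poor cells of KO3 held the highest level of all 8 values. The suprabasal keratin Krt1 had 191, 32.9, 67.3 and 255 CPM against 275, 2377, 320 and 68.4 CPM, lower in gene-rich cells in KO3 and higher in the other 3 mice. The suprabasal list had mouse medians of 0.52, 2.73, -0.08 and -1.48, with 0 of 23 genes higher and 1 lower in all 4 mice. Of 21 desmosome and junction genes 5 were higher in all 4 mice and 0 lower, among them the desmocollin Dsc2 with 23.48, 25.17, 33.2 and 387 CPM against 399, 206, 131 and 450 CPM.

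Krt15 and Sox9, genes of bulge stem cells, stood higher in gene-poor cells of all 4 mice, but the hair follicle stem cell list did not as a whole. Of its 10 measured genes 2 were lower in gene-rich cells in all 4 mice and 0 higher, with mouse medians of -2.71, 0.05, -0.81 and 0. Krt15 (chromosome 11, 100131758 to 100135928, minus strand) stood at 4993, 1765, 1401 and 871 CPM in gene-poor cells and at 199, 658, 484 and 20.3 CPM in gene-rich cells. Each gene-poor value exceeded each gene-rich value. The stem cell transcription factor Sox9 had 233, 401, 239 and 66.4 CPM against 73.6, 137, 46.3 and 18.6 CPM, lower in gene-rich cells in 4 of 4 mice, with an overlap between gene-poor cells of KO3 and gene-rich cells of WT1 and WT2. Thbs1, which encodes the matrix protein thrombospondin-1, had 1303, 2897, 1074 and 339 CPM against 95.04, 750, 257 and 34.3 CPM, lower in each mouse although gene-rich cells of WT2 exceeded gene-poor cells of KO3. Lgr5, the receptor that marks cycling follicle stem cells, had 54.7 and 10.8 CPM in gene-poor cells of WT1 and KO3 and no read in the other 6 sums. Reads of Krt15 were found in 70 gene-poor and 44 gene-rich cells, and of Thbs1 in 68 and 40. The hemidesmosome collagen Col17a1 was lower in gene-rich cells in 4 of 4 mice (mean log2 -0.81 ± 0.30, SD, n = 4 mice), as was the chemokine Cxcl14 (-1.85 ± 1.10).

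The basal keratinocyte list as a whole was not one-sided, with 5 of 20 genes lower and 2 higher in all 4 mice. The log2 ratio of Krt14 was within its spread over mice (mean 0.23 ± 0.40), as was that of Trp63 (-0.33 ± 0.60), Itga6 (0.07 ± 0.40), which encodes CD49f, and Cd34 (0.10 ± 0.79), the last a marker of the sort. The chemokine gene Cxcl12 had 72.3, 5.66, 84.6 and 7.22 CPM in gene-poor cells and no read in gene-rich cells. Its 1993 reads lay in 15 of 94 gene-poor cells, and its mean of 21.2 CPM passed the limit of 20 CPM only through gene-poor cells. A floor of 3 reads over the pooled gene-rich cells gives a bound of 664-fold, which takes reads as independent. Reads of the same cell are not independent, so an unseen gene-rich cell with reads could break that bound. The reads were uneven, with 831, 82, 1015 and 65 in the 4 mice, and the bound is 387-fold without WT1 and 326-fold without KO1. For gene-rich cells pooled over mice, 0 of 94 allows a share of up to 3.19% of cells with a read, by counting error only, and for a gene chosen for this pattern. The other genes with the lowest mean log2 ratios were Gem (a small GTPase induced by mitogens), Ehd3 (an endocytic recycling protein), Steap4 (a metalloreductase), Klhl24 (an adaptor that directs keratin turnover), Nedd9 (a focal adhesion scaffold), Txnip (an inhibitor of thioredoxin and of glucose uptake) and Cnst, from -3.76 for Gem to -2.15 for Cnst. Cxcl12 was not the only such case at the naming limit. Cnst was under 20 CPM in gene-rich cells of each mouse, and Gem and Steap4 in each mouse but WT2.

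Immediate early genes were lower in gene-rich cells. Of 28 measured members, 18 were lower in all 4 mice and 0 higher, with a median log2 ratio of -0.80 and mouse medians of -0.98, -0.58, -0.88 and -0.66. Fos and Jun, the AP-1 subunits, are named here after their values were seen: Fos stood at 4906, 6720, 3828 and 3731 CPM in gene-poor cells and 3189, 4711, 2297 and 2120 CPM in gene-rich cells, and Jun at 2579, 3850, 2297 and 1465 against 1141, 2132, 937 and 926 CPM. Within each mouse both were lower in gene-rich cells, while WT2 gene-rich cells overlapped the gene-poor range of the other mice. The ERK phosphatase Dusp6 had a mean log2 ratio of -1.06 ± 0.37 and the RNA-decay factor Zfp36l1 -1.41 ± 0.40 (SD, n = 4 mice). Interferon response and MHC class I genes had 8 of 18 lower and 0 higher (median -0.56), with the interferon regulators Irf7 at -2.04 ± 0.20 and Irf9 at -1.27 ± 0.74. TGF-beta response and mesenchymal genes had 6 of 22 lower and 0 higher (median -0.40), lysosome and autophagy genes 7 of 28 lower and 0 higher (median -0.32, with the autophagosome protein Map1lc3b at -1.06 ± 0.28), and Notch and WNT genes 6 of 26 lower and 1 higher (median -0.49, with the Notch ligand Dll1 at -1.37 ± 0.67).

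**Figure D3:**
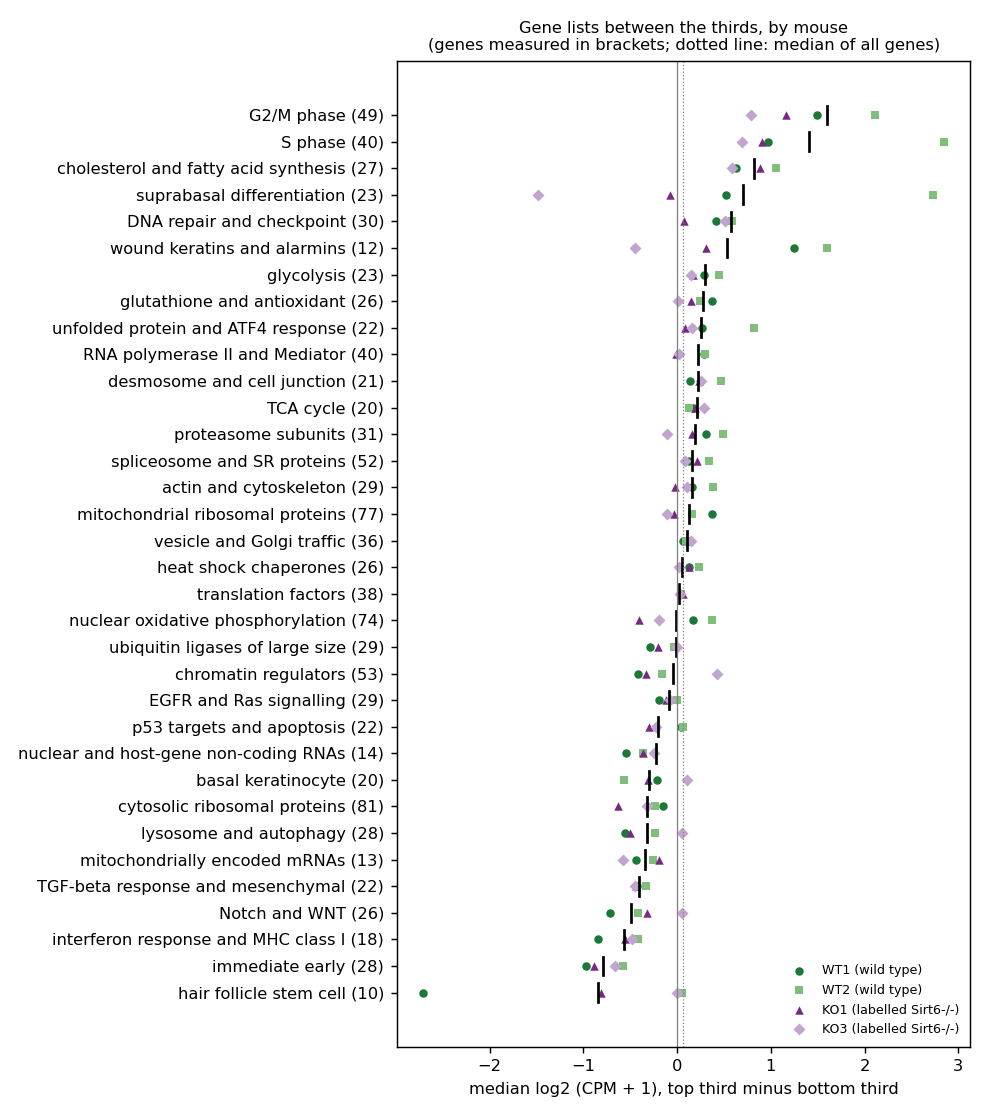
Each row is a gene list, with 1 symbol per mouse for the median log2 ratio of CPM + 1 (gene-rich minus gene-poor cells, labelled top and bottom) and a black bar for the median of the gene means. The S and G2/M lists lie to the right in all 4 mice and the immediate early list to the left.

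The medians shift together with the scaling. With TMM factors the median over all genes rose by 0.16, and with the mean log2(CPM + 1) per cell, which gives weight to cells where a gene is absent, it was 0.56. Under the per-cell mean 5860 genes were higher in all 4 mice and 331 lower, and under TMM 2595 and 757. The G2/M list (2.32 per cell) and the S list (2.35) then still lay above all genes and the immediate early list (-0.33) below them. The TGF-beta list moved to 0.35 and the non-coding RNA list to 0.14 under the per-cell mean, both below the median of all genes there but of the opposite sign.

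The genes of the lists were also tested with the cells ranked on genes outside all lists, an alternative added after seeing the data. It left 185 of 188 cells in the same part, so the cells compared were almost the same. The p-values and calls below therefore stay tied to the choice of cells. They describe how the calls vary with the count model and are no independent support for a list. With cells so chosen, edgeR's quasi-likelihood test over 12320 genes with Benjamini-Hochberg adjustment called 0 of 1078 list genes (0% of all genes were called), with 289 list genes at an unadjusted p under 0.05 and a smallest adjusted p of 0.165. DESeq2 on the same sums called 184 list genes (849 of 12320, or 6.89%, of all genes). By DESeq2, 33 of 49 G2/M genes, 13 of 40 S-phase genes and 8 of 27 lipid synthesis genes were higher in gene-rich cells, and 16 of 27 immediate early genes and 30 of 82 cytosolic ribosomal protein genes were lower. Calls among the list genes thus depend on the count model, and leaving out each mouse in turn gave 0 edgeR calls.

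Among cells of low cycle signal the lipid synthesis and immediate early lists kept their direction. The cycle lists were limited in advance there, because the cells were chosen for few S and G2/M reads. Their lower counts can thus not be set against those of the other lists, and their medians still lay above that of all genes. Within the cells of each mouse below its median of S and G2/M reads, cut anew into 46 gene-rich and 46 gene-poor cells in all (also added after seeing the data), the medians were 0.76 for G2/M and 0.63 for S phase, 6 of 49 and 4 of 39 genes being higher in all 4 mice. Immediate early genes had a median of -0.80, with 15 of 28 lower and 0 higher in every mouse. The median was 1.17 for cholesterol and fatty acid synthesis (18 of 27 higher, 1 lower) and 0.70 for glycolysis (12 of 23 higher, 4 lower). All genes had 1143 higher and 1042 lower of 12986, with a median of 0.05. Of the cells cut anew, 74 held the same part as in the main ranking, so a shared direction is no separate check. The genes below were also named from that ranking. In the cells of low cycle signal Krt15 had a mean log2 ratio of -6.86, Thbs1 -4.18, Gem -4.45 and Cxcl12 -5.40, each lower in 4 of 4 mice. Idi1 (4.89), Elovl6 (3.26), the cystine transporter Slc7a11 (2.55), the sulfiredoxin Srxn1 (3.19) and the wound keratin Krt6a (2.38) were higher in 4 of 4 mice. Sox9 (-1.38) was lower in 3 of 4, and Dnmt1 (0.0042) was higher in 2 and lower in 2.

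Shares of reads in ribosomal RNA did not divide the cells the same way in every mouse. The nuclear rRNA share, nearly all of it from the annotated gene CT010467.1, was 2.85%, 2.23%, 1.98% and 1.63% in gene-poor cells and 2.45%, 2.74%, 2.74% and 1.66% in gene-rich cells. It was thus lower in gene-rich cells in WT1 and higher in the other 3 mice, by 0.23 ± 0.51 percentage points on average (SD, n = 4 mice, exact sign-flip p = 0.375, adjusted 0.562). The mitochondrial rRNA share was 3.35%, 3.83%, 3.43% and 2.41% in gene-poor and 3.02%, 3.41%, 4.51% and 2.17% in gene-rich cells, lower in 3 mice and higher in KO1 (mean 0.02 ± 0.71 points, exact sign-flip p = 1, adjusted 1). Nearly all of it came from mt-Rnr2, at 37399, 41075, 37249 and 25469 CPM in gene-poor and 30800, 35782, 45697 and 23909 CPM in gene-rich cells. These shares count reads of poly(A)-primed libraries and do not measure total rRNA. At a fixed depth, reads in rRNA or mitochondrial mRNAs leave fewer for other genes, so no such share is free of the ranking. Of the 13 mitochondrial mRNAs only 8 had a read in every cell, and the others could change a cell's gene number. The sign-flip p-values of the shares are thus no independent test. The messenger RNAs of the mitochondrial genome behaved alike in all mice: they took 1.48%, 1.89%, 2.05% and 2.00% of reads in gene-poor and 1.22%, 1.40%, 1.89% and 1.29% in gene-rich cells, lower in 4 of 4 mice by 0.41 points on average (SD 0.25, exact sign-flip p = 0.125, adjusted 0.375, the smallest 4 mice allow). Cytosolic ribosomal protein genes took 5.92%, 7.404%, 7.496% and 6.17% in gene-poor and 5.04%, 5.83%, 6.00% and 5.70% in gene-rich cells, also lower in 4 of 4 mice. Gm26917, a non-coding RNA that overlaps ribosomal DNA sequence, had 4837, 7432, 6456 and 5228 CPM against 4921, 7544, 8997 and 5393 CPM, with its only sizeable difference in KO1.

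**Figure D4:**
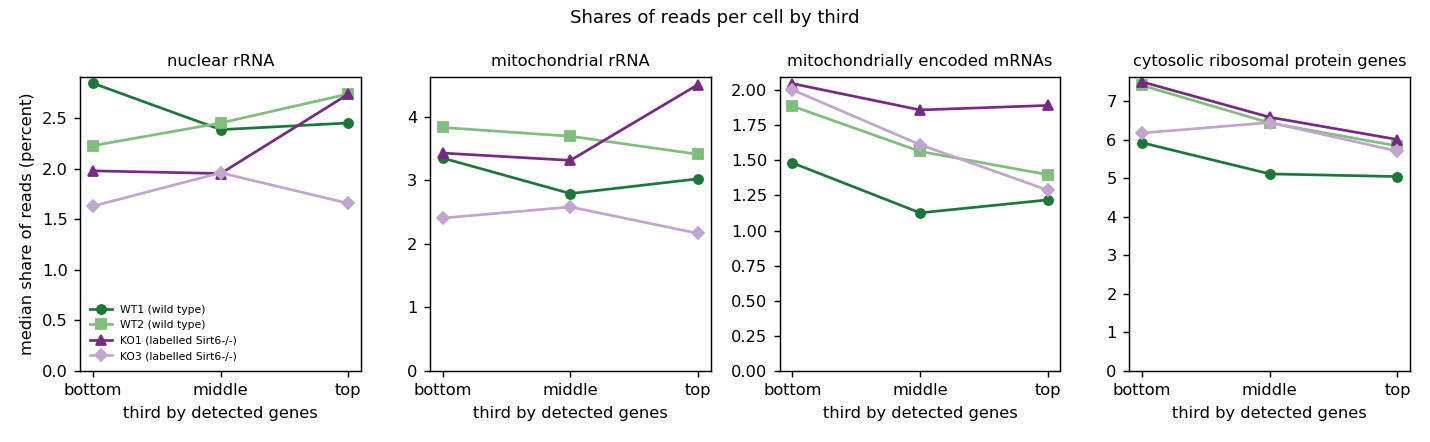
Median share of reads (percent, axes from 0) in gene-poor (bottom), middle and gene-rich (top) cells, 1 line per mouse. Mitochondrial rRNA was higher in gene-rich cells in KO1 at 4.51% and lower in the other 3 mice, while the mRNAs of the mitochondrial genome were lower in 4 of 4 mice.

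A test less tied to the choice of cells was run on 280 genes that had a read in each of the 284 thinned cells. Such a gene adds the same 1 to every cell's gene number, so its detection did not rank the cells. Its level was not free of the ranking, because at a fixed depth its reads leave fewer for other genes: the 280 genes took 31.1%, 35.2%, 33.3% and 31.7% of reads in gene-poor cells and 30.2%, 33.02%, 34.95% and 29.8% in gene-rich cells. With reads summed per mouse and part, scaled to the sum of the 280 genes and fitted with mouse as a block, edgeR's quasi-likelihood test called 59 of 280 genes (21.1%) at an adjusted p under 0.05. Of these, 22 (7.86%) were higher and 37 (13.2%) lower in gene-rich cells, and 116 had an unadjusted p under 0.05. The split depends on scaling: 16 higher and 78 lower with plain CPM, 49 and 34 with TMM, and 56 and 35 with DESeq2, where the median log2 ratio over the set moved from -0.14 to -0.20, -0.02 and 0.00. All 59 genes kept their sign under these 3 alternatives and 43 were called in all 3. Without KO1 23 genes were called and without KO3 29. Fitted in the whole table, 0 of the 280 genes passed by edgeR, with 104 at an unadjusted p under 0.05 after filtering. That fit adjusted p over the whole table, used TMM scaling and let genes that ranked the cells enter the estimate of spread. Which of these changes lowered the count was not tested. Without the mouse block 1 gene passed.

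Among genes higher in gene-rich cells were 3 of the 4 glycolysis genes in the set, and 2 of the 4 without KO1. Ldha, lactate dehydrogenase A (chromosome 7, 46841475 to 46855627, plus strand), had 3967, 2824, 3314 and 7224 CPM in gene-poor and 6915, 4977, 5726 and 7931 CPM in gene-rich cells. KO3 gene-poor cells exceeded the gene-rich cells of the other mice, but within each mouse the gene-rich value was higher, and the fitted log2 ratio was 0.70 ± 0.12 (SE, edgeR adjusted p = 0.0039). Gapdh was higher by 0.59 ± 0.11 (edgeR adjusted p = 0.0052) and the pyruvate kinase Pkm by 0.49 ± 0.09 (edgeR adjusted p = 0.0052), and both were higher in 4 of 4 mice on this scale, although Gapdh in KO3 differed by only 0.15. Dstn, the actin-depolymerising factor destrin (chromosome 2, 143915320 to 143943324, plus strand), had the next largest ratio after Ldha among all 22 genes, 0.68 ± 0.10 (edgeR adjusted p = 0.0021), with 969, 814, 808 and 1196 CPM against 1633, 1391, 1078 and 1752 CPM. The actin Actg1 rose by 0.46, the ubiquitin-like modifier Sumo2 by 0.57, the antioxidant thioredoxin Txn1 by 0.63 and the keratinocyte 14-3-3 protein Sfn by 0.46 (edgeR adjusted p = 0.011, 0.013, 0.021 and 0.013). The RNA-binding protein Hnrnpf (0.46), the translation factors Eif5a (0.37) and Eif4a1 (0.41), the proteoglycan Sdc1 (0.44) and the phosphatase subunit Ppp1ca (0.37) also passed, with edgeR adjusted p up to 0.046. On plain CPM the sign differed in 1 mouse for 3 of these: Hnrnpf and Eif5a in KO3 and Sdc1 in WT1 were not higher in gene-rich cells. Gm6560 (0.49) and Eif4a-ps4 (0.64) are copies whose reads cannot be told from their parent genes and are uncertain.

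Among the 37 genes lower in gene-rich cells, 13 were cytosolic ribosomal protein genes of the 76 in the set, and 0 of the 76 were higher. That share is somewhat above the 13.2% of the whole set called lower, and the gap was not tested. Under plain CPM 34 of the 76 were lower and 0 higher, beside 78 lower and 16 higher of all 280. Under TMM 13 were lower and 1 higher, beside 34 lower and 49 higher of all 280. The 13 became 4 without KO1, 6 without KO3 and 21 without WT2. Rps9 had 895, 1110, 1385 and 1095 CPM in gene-poor and 609, 721, 733 and 746 CPM in gene-rich cells, with no overlap, and fell by 0.60 (SE 0.11, edgeR adjusted p = 0.0052). Rps27 fell by 0.85, Rpl23a by 0.67 and Rps14 by 0.54 (edgeR adjusted p = 0.011, 0.0062 and 0.02). The mitochondrially encoded ATP synthase subunit mt-Atp8 (mitochondrial genome, 7766 to 7969) had 175, 185, 245 and 206 CPM against 82.7, 102, 135 and 88.2 CPM and fell by 0.95 (SE 0.14, edgeR adjusted p = 0.0021), while 2 of 8 mitochondrial mRNAs in the set were called in all. Both nuclear or snoRNA-host non-coding RNAs in the set were lower: Malat1 had 645, 1149, 548 and 313 CPM against 327, 899, 369 and 201 CPM (-0.58 ± 0.13, edgeR adjusted p = 0.013), and Gas5 -0.77 ± 0.15 (edgeR adjusted p = 0.0052). Nop53, a ribosome biogenesis factor (-0.78), the polyubiquitin gene Ubb (-0.60), the transcription factor Klf13 (-0.57) and the ion transport regulator Fxyd3 (-0.58) fell as well, with edgeR adjusted p of 0.0052, 0.0035, 0.0052 and 0.013. Of the 59 called genes 13 were annotated pseudogenes, 11 of them lower, among these Gm29216 (-0.81), Gm6472 (-0.54) and Rps19-ps6 (-0.57). Reads of pseudogenes, and of the retrotransposed copy Rps27rt (-0.62), may be shared with near-identical genes, so their values are uncertain.

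**Figure D5:**
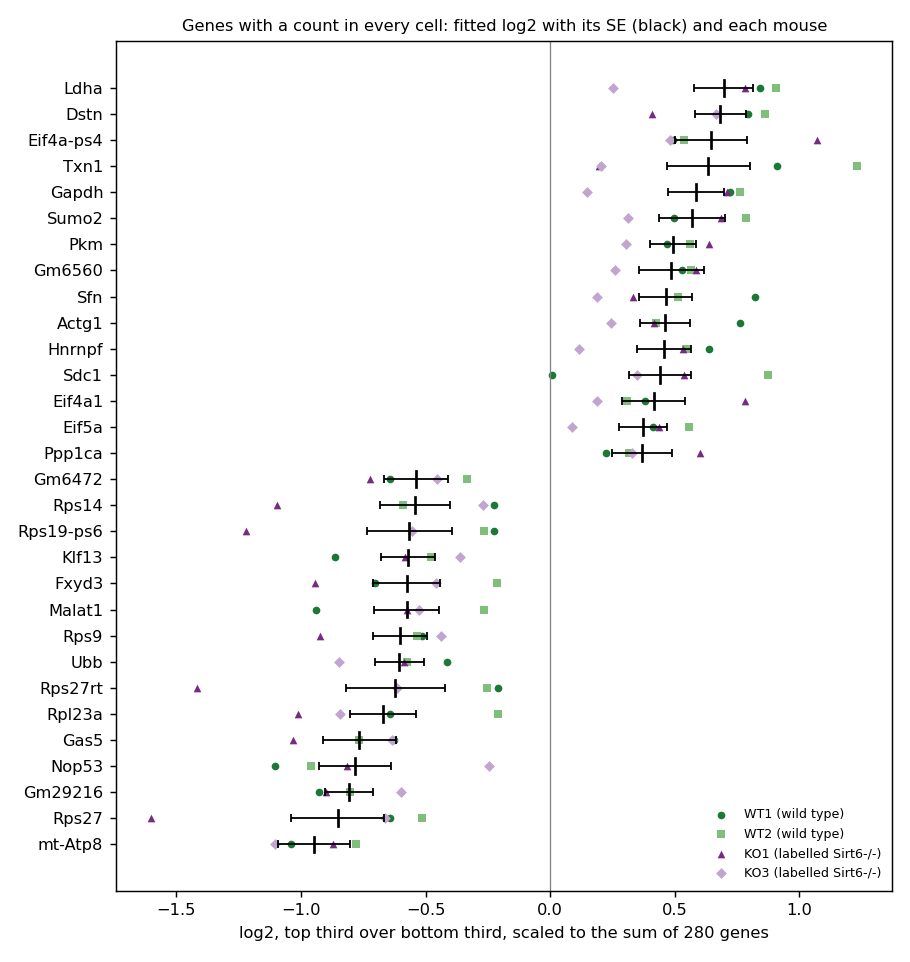
The 30 named genes of the set, with the fitted log2 ratio and its SE in black and each mouse's own ratio as a symbol, scaled to the 280 genes. The fitted ratios run from -0.95 for mt-Atp8 to 0.70 for Ldha. All symbols of a gene lie on 1 side of 0 because that was a condition of naming.

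Among cells of low cycle signal 22 of the 280 genes were called, 9 higher and 13 lower, against 59 in the main fit. That cut, added after seeing the data, held 46 gene-rich and 46 gene-poor cells, fewer than the main fit. Among the calls were Ldha (log2 1.08, edgeR adjusted p = 0.0081), Pkm (0.78, edgeR adjusted p = 0.0081) and Dstn (1.06, edgeR adjusted p = 0.0013). Sumo2 (0.16) and Hnrnpf (0.23) did not pass there. Neither did Rps14 at -0.68 (edgeR adjusted p = 0.052), a larger ratio than its -0.54 in the main fit. The part of cell cycle or of cell number in such failures was not tested.

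No difference in gene number between genotypes was detectable with 4 mice. The medians over all cells of a mouse averaged 6031.5 genes over wild-type mice and 6086.5 over those labelled Sirt6-/-, a difference of 55 (exact permutation p = 1, and 2 mice against 2 cannot go below 0.333). The difference between gene-rich and gene-poor cells was tested against genotype in the 280 genes with an interaction term, and 5 (1.79%) passed by edgeR, all with a smaller ratio in the labelled Sirt6-/- mice. Among these were Txn1, the ATP synthase subunit Atp5l, the elongin Elob and the calcium-binding protein S100a6. The log2 ratio of Txn1 was 0.91 and 1.23 in the wild-type mice and 0.19 and 0.20 in the others (interaction -0.87 ± 0.23, edgeR adjusted p = 0.015). With TMM scaling 0 genes passed, with the reads left over by thinning 0, and with DESeq2 2.

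Plate position was not evenly spread. Of 8 KO1 cells on a second plate, 5 were gene-poor and 0 gene-rich, and of 7 WT2 cells on a second plate, 1 was gene-poor and 2 gene-rich. Without all 15 such cells 35 of the 280 genes were called. Cells in edge wells made up 30.4%, 44.8%, 33.3% and 50.0% of gene-poor and 43.5%, 31%, 25% and 27.8% of gene-rich cells, which an exact sign-flip permutation test over mice did not separate (p = 0.375). The part of plate, well or RNA quality in the differences between gene-rich and gene-poor cells was not tested.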

How the data were processed

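The authors deposited expected counts per gene and cell, made with STAR and RSEM on mm10 (GRCm38), per the submitters' processing notes; their versions and settings are not stated there. Libraries were a modified Smart-seq2 without molecular identifiers, per the labels' protocols, so a count is a read, and intervals and floors cover counting error only. Counting by strand is not stated, so antisense partners were not told apart. Of non-zero values 21.5% were not whole. Counts were rounded, and each cell was thinned without replacement (seed 1) to 500000 reads, with NumPy. Of 54247 gene IDs 54156 matched GENCODE M21. No doublet caller was run on these sorted single wells, and no 2 cells held identical values (0 pairs).

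Ranked cells were summed per mouse and part, with mouse as the replicate (4 mice, 2 per genotype); the number of mice limits all tests. Gene-rich and gene-poor cells of a mouse pair by animal, and the correlation of their deviations was 0.50, 0.61, 0.10 and 0.67. The main fit used edgeR 4.0.16 in R 4.3.3 (glmQLFit, glmQLFTest, two-sided, Benjamini-Hochberg, threshold 0.05); limma 3.58.1 and DESeq2 1.42.0 were alternatives. The fitting script was run on simulated counts, with TMM scaling and without a ranking of cells by gene number. That run therefore does not check the scaling of the main fit or the effect of choosing the cells. Of the genes in the set, those named are the 15 highest and 15 lowest past the threshold with 1 sign in 4 mice; of all genes of at least 20 CPM with 1 sign in 4 mice, the 10 highest and 10 lowest; of each list, up to 4 members of at least 5 CPM with the largest mean ratio; and a few marker genes. Log2 ratios of described genes use CPM with a pseudocount of 1, which understates changes of low genes. The members, the 43 gene lists and the tests were chosen with earlier results of these data known. The single values of a few genes are not reported here.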

Additional observations from a re-analysis of the deposited data

Results flagged for a closer look

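Among 104 values searched over the 4 mice, 8 had 1 mouse standing apart from the other 3 by a rule that chance meets in about 1 of 20 groups. In KO1 the mitochondrial rRNA share was 1.08 percentage points higher in gene-rich cells, while it was lower in the other 3 mice. In WT2 the S-phase list had a median log2 ratio of 2.85, against 0.70 to 0.97 elsewhere. Krt5 stood apart in KO1 (0.47), Itga6 in KO3 (0.68), and Gapdh in KO3 (0.032 on all reads, 0.15 within the set). Rps27 (-1.60) and Eif4a-ps4 (1.07) stood apart in KO1 within the set.

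Of 35 lists compared, those named here had both wild-type mice moving opposite to both mice labelled Sirt6-/-. With so few mice, some of 35 lists can split this way by chance alone. The number that chance would give was not worked out. The difference between genotypes in these lists was not tested, so the split is a description only. Nuclear oxidative phosphorylation genes had mean mouse medians of 0.27 and -0.30, mitochondrial ribosomal proteins 0.27 and -0.070, suprabasal differentiation genes 1.63 and -0.78, and p53 targets and apoptosis genes 0.052 and -0.26. By an interaction term the ratio was lower in the labelled Sirt6-/- mice for Atp5l (-1.09), Elob (-0.89), S100a6 (-0.91) and Txn1 (-0.87). Genotype and plate cannot be told apart in any of these.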

How the results depend on the processing

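The count of 59 called genes stayed within 1.5 times under 15 of 25 alternatives. It was 37 with another thinning seed, 35 without cells off the main plate, 22 in cells of low cycle signal, 94 with plain CPM, 91 with DESeq2, and 0 and 0 in the whole table with and without a filter on low counts. Pairing by mouse carries the result, with 1 call without the replicate block. Leaving out 1 mouse gave 23 to 62 calls. The 5 interaction calls became 0 with TMM, 2 with DESeq2 and 0 on left-over reads. For all genes, 2595 were higher in every mouse and 757 lower with TMM, and 5860 and 331 with the mean log2 per cell; leaving out 1 mouse gave 2314 to 2532 and 1749 to 2182, where 3 mice need to share a sign. List genes called with the cells chosen outside the lists went from 0 to 184 with DESeq2. The mean difference in total counts was 18968.8 at 1000000 reads, 27218 with a split at the median and 28507.1 on the main plates. With the mean log2 per cell the TGF-beta list turned to 0.35, the non-coding RNA list to 0.14, Ndufv3 to 0.21, Ulk1 to 0.032 and Mrps31 to 0.11, and in cells of low cycle signal Prpf3 turned to -0.36. The cause was not tested.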
